A study of Mus musculus with 64 samples.

Results

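The Slc2a genes encode the GLUT family of membrane transporters, most of which carry glucose or related solutes down their gradient across membranes. Each tissue uses its own members: GLUT1, the product of Slc2a1, carries glucose through the endothelium of the blood-brain barrier and into astrocytes, whereas GLUT2, the product of Slc2a2, lets glucose pass in both directions across the membrane of hepatocytes. Glucocorticoids such as corticosterone (CORT) act on cells through the glucocorticoid receptor (GR) and are known to raise blood glucose. The members described here were chosen by name (Slc2a1, Slc2a2, Slc2a3, Slc2a4, Slc2a5, Slc2a6, Slc2a8, Slc2a9, Slc2a12 and Slc2a13), and all 10 were found among the 55414 gene IDs of the acute count table and the 55573 gene IDs of the continuous count table.

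Read counts came from male mice of 10 to 18 weeks, F1 hybrids of C57BL/6J and 129sv, which were either wild type (WT) or a model of Angelman syndrome (AS). The AS mice carried the Ube3a tm1Alb deletion of exon 5 on the maternal allele (Ube3a m-/p+), and the intact paternal allele is silent in neurons but active in other cells. In the acute experiment, the left hippocampus was taken 3 h after a subcutaneous injection of 3 mg/kg CORT or of vehicle, which was ethanol in PBS, from 6 mice in each of the 4 groups (WT vehicle, WT CORT, AS vehicle and AS CORT). In the continuous experiment, hippocampus and liver were taken from 20 mice, 5 in each of the same 4 groups, after 5 days with a subcutaneous pellet of cholesterol alone (vehicle) or of cholesterol with 20 mg CORT. Each library is 1 mouse, and libraries are called H (hippocampus) or L (liver) with the number of the labels.

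Libraries held 18612550 to 21783009 reads on genes, and a count of 3, used as the floor of a library, corresponds to 0.138 to 0.161 CPM, the unit in which counts are divided by the size of the library. This floor covers counting error only. Fkbp5, a classical GR target, was higher with CORT in both genotypes in the acute hippocampus (log2 fold changes 0.82 in WT and 1.10 in AS), the continuous hippocampus (0.58 and 1.05) and the liver (3.43 and 4.14). Ube3a counts over the whole gene passed no test between genotypes in the hippocampus (adjusted p of 0.472 or more with edgeR), and they were lower in AS liver by 0.55 with vehicle and by 0.48 with CORT on the log2 scale. Of the continuous hippocampal libraries, H9 (AS vehicle) and H13 (WT vehicle) were left out of the fits, as in the study. Their summed markers lay apart, with markers of thalamus at 1484 CPM in H9, and with markers of choroid plexus at 12942 CPM and of striatum at 671 CPM in H13. Among the acute libraries, H17 and H18 (AS vehicle) and all 6 AS CORT libraries had 2640 to 2850 reads set aside for low alignment quality, against 1877 to 2237 in the other 16. The genotype and this division of the libraries cannot be told apart among the CORT mice.

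The promoters of Slc2a1 and Slc2a2 are shown because these are the members with the highest level in hippocampus and in liver. Slc2a1 (ENSMUSG00000028645) lies on the plus strand at chr4:119108711-119137983 and Slc2a2 (ENSMUSG00000027690) on the plus strand at chr3:28697903-28731359 of GRCm38, the mm10 build to which the reads were aligned. The sequences end at the base before the annotated start of the gene, run 5′ to 3′ on the plus strand and come from RefSeq (GRCm38.p6). Capitals mark GGGCGG on either strand, the core of the GC box, in Slc2a1 and CCAAT on either strand, the CCAAT box, in Slc2a2.
Slc2a1, chr4:119108495-119108710: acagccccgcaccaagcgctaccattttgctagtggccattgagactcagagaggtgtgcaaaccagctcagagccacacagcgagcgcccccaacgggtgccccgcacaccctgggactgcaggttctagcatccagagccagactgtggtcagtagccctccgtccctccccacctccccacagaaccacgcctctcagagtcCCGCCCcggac
Slc2a2, chr3:28697653-28697902: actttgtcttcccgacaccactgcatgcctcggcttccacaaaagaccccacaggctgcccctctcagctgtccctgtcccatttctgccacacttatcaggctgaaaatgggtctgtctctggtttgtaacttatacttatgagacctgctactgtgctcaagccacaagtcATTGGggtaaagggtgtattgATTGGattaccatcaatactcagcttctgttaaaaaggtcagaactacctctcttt
G and C made up 63.9% of the bases of the Slc2a1 stretch and 47.2% of those of the Slc2a2 stretch. Over the 250 bases before the RefSeq start, searched on both strands, Slc2a1 held 2 matches to GGGCGG and none to CCAAT, and Slc2a2 held 2 matches to CCAAT and none to GGGCGG. Of the matches in Slc2a1, 1 lies in the stretch shown. Promoters were held for 8 of the 10 members, all but Slc2a3 and Slc2a4. GGGCGG was also present in Slc2a5, Slc2a6 and Slc2a13, and CCAAT in Slc2a6 and Slc2a8. Of all 32851 promoters, 32.7% held GGGCGG and 33.8% held CCAAT. Neither the full GR palindrome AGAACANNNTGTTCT, held by 0.00913% of all promoters, nor its first part AGAACA, held by 16.1%, nor the TATA box TATAAA, held by 12.4%, was found in the window of any of the 8.

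The level of each member was compared per kilobase of exon, as CPM (normalized by edgeR's TMM method within each data set) divided by the summed exon length of GENCODE M21. In the acute hippocampus of WT vehicle mice, Slc2a1 had the highest level, 25.0 ± 1.51 CPM per kilobase (SD, n = 6), which was 34.6% of the sum over the family. Slc2a13, which encodes HMIT, a proton-coupled carrier of myo-inositol of neurons (chr15:91267696-91573261), followed with 15.5 ± 1.83, and Slc2a3, which encodes GLUT3, the main glucose transporter of neurons (chr6:122727809-122801640), with 14.2 ± 1.08. The libraries of Slc2a13 and Slc2a3 overlapped, and both genes lay below every Slc2a1 value. Next came the transporters of intracellular membranes, Slc2a6 (GLUT6, chr2:27021363-27027998) at 9.06 ± 1.32 and Slc2a8 (GLUT8, chr2:32972990-32982083) at 5.66 ± 0.436, which overlapped neither each other nor their neighbours. The fructose transporter gene Slc2a5 (chr4:150119283-150144169), Slc2a12 (GLUT12, chr10:22645011-22704285) and the urate transporter gene Slc2a9 (chr5:38349273-38503143) stood close together at 1.04, 0.846 and 0.684 CPM per kilobase. The libraries of Slc2a12 overlapped those of both others, whereas Slc2a5 and Slc2a9 did not overlap each other. Slc2a4, which encodes GLUT4, the insulin-responsive transporter of muscle and fat (chr11:69942539-69948188), stood at 0.289. Slc2a2 had 0 to 4 counts in the 24 libraries. Slc2a1 shares 105 exonic bases with Gm12868 and Slc2a12 shares 407 with Tbpl1, both on the other strand. The libraries were stranded, but the strand setting of the counting is not given in the sources used here.

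In the continuous hippocampus of WT vehicle mice the same members led, in a slightly different order. Slc2a1 had 25.8 ± 4.67 CPM per kilobase (SD, n = 4) and Slc2a3 had 19.9 ± 2.38, so that the libraries of these genes overlapped here, followed by Slc2a13 at 13.98, Slc2a6 at 11.1 and Slc2a8 at 6.37 without overlap between neighbours. Slc2a12 reached 1.61 ± 1.07 CPM per kilobase with a wide spread. Its CPM values were 2.48 in H1, 3.67 in H4, 9.01 in H6 and 12.1 in H17, and 63.8 in the H13 library left out of the fits. The libraries with high Slc2a12 were those with high summed markers of the choroid plexus, the tissue that secretes cerebrospinal fluid (76.8 CPM in H1, 83.9 in H4, 1266 in H6, 2883 in H17 and 12942 in H13), and the part of this tissue in the Slc2a12 values was not tested.

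In the liver of WT vehicle mice, Slc2a2 stood alone at 78.3 ± 22.4 CPM per kilobase (SD, n = 5), 76.3% of the sum over the family. Slc2a9, whose product carries urate, followed with 11.1 ± 1.85. Slc2a5 at 3.30 ± 2.09 overlapped both Slc2a8 at 6.45 ± 0.640 and Slc2a1 at 3.22 ± 1.18, which did not overlap each other. Slc2a4 stood at 0.155, and the remaining members were close to the floor over all 20 liver libraries, with 1 to 12 counts for Slc2a3, 1 to 15 for Slc2a13, 0 to 7 for Slc2a6 and 0 to 3 for Slc2a12. The plot of levels in WT vehicle mice shows all members in the 3 data sets, each of which was normalized separately.

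**Figure D1:**
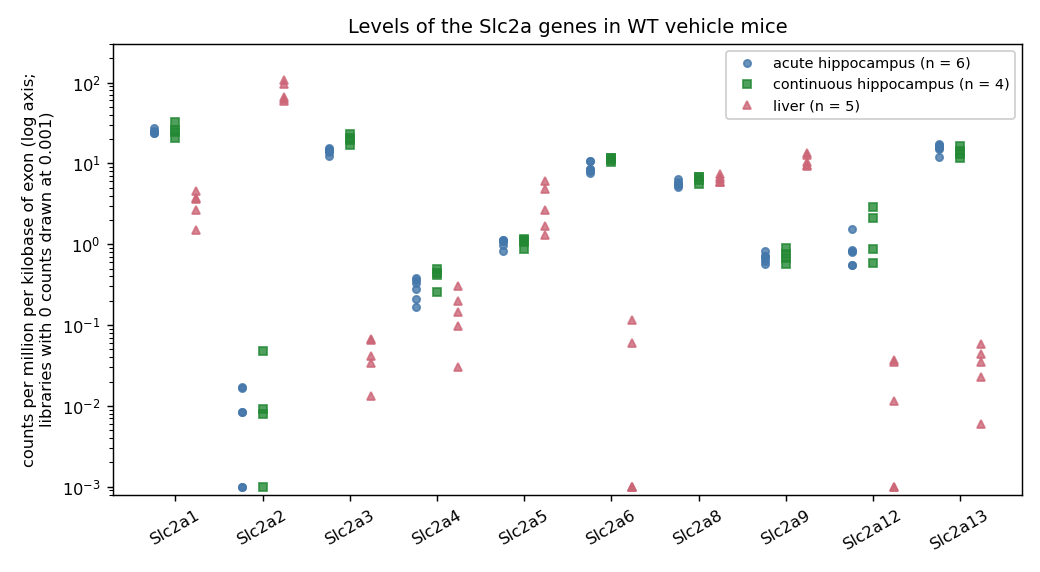
Level of each Slc2a gene in WT vehicle mice, in CPM per kilobase of exon on a log axis, with 1 point per library (blue circles, acute hippocampus, n = 6; green squares, continuous hippocampus, n = 4; red triangles, liver, n = 5). Slc2a1 led in hippocampus at about 25 CPM per kilobase and Slc2a2 in liver at 78.3, while Slc2a3, Slc2a6, Slc2a12 and Slc2a13 were near the floor in liver.

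Liver and hippocampus of the continuous WT vehicle mice were compared in 1 fit with edgeR's quasi-likelihood test, in which 89.5% of 16205 genes differed at an adjusted p under 0.05. All 10 members entered it, 4 were higher and 5 lower in liver. For Slc2a2, Slc2a3, Slc2a6, Slc2a12 and Slc2a13 the direction was fixed by the filter, which they passed only through the tissue where they are high, so their calls are given as a description. Slc2a2 was higher in liver, with 6833 to 12999 counts per liver library against 0 to 6 in the hippocampal libraries. The hippocampal libraries with the most Slc2a2 counts among those fitted, H1 (6 counts) and H2 (4 counts), also had the highest summed markers of hepatocytes (108 and 37.7 CPM, against at most 3.78 in the other fitted libraries), and whether liver RNA had reached these libraries was not tested. Slc2a9 was 29.2-fold higher in liver (log2 difference 4.87, SE 0.212) and Slc2a5 was 5.99-fold higher (2.58, SE 0.369), both with an adjusted p of 6.26e-08 or less. Slc2a1 was lower in liver by 2.06 on the log2 scale (SE 0.205, adjusted p = 1.63e-11), and Slc2a3, Slc2a6, Slc2a12 and Slc2a13 were lower with the counts given above. Slc2a4 did not pass the test (log2 difference -0.43, adjusted p = 0.404), but it was called lower in liver when H9 and H13 were included, with all 10 members then called.

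These differences depend on how tissues of unlike composition are put on a common scale. The TMM factors were 0.671 to 0.781 in liver and 1.36 to 1.45 in hippocampus, and the median difference over all genes was -0.20 in the fit but -1.003 on plain CPM. Slc2a8 shows the consequence. It was called higher in liver, by 0.95 (SE 0.106) with TMM and by 0.85 to 0.94 with the other scalings, but its plain CPM means were 21.4 in liver and 20.6 in hippocampus, a log2 difference of 0.05. The directions of the other 8 called members were the same on plain CPM, where the difference of Slc2a4 was -1.33.

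Acute CORT raised Slc2a1 in the hippocampus, in both genotypes. In WT vehicle mice Slc2a1 had 82.2 CPM in the lowest library, 86.3 at the median and 97.2 in the highest, and in WT CORT mice it had 157 CPM in the lowest, 164 at the median and 191 in the highest. Every CORT library thus lay above every vehicle library. The increase was 1.92-fold (log2 fold change 0.94, SE 0.0705, n = 6 per group, adjusted p = 3.78e-09, edgeR quasi-likelihood test with Benjamini-Hochberg adjustment). It was the only member called among the 9 tested, in a comparison that called 1.48% of 14611 genes. The median log2 fold change over the 9 was 0.01, against -0.00226 over all genes tested. Slc2a2 did not pass the filter on low counts in the hippocampus.

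In AS mice, Slc2a1 had 65.6 to 98.0 CPM with vehicle (median 81.5) and 147 to 167 CPM with CORT (median 152), again without overlap. The lowest vehicle values were those of H17 (65.6) and H18 (76.0), the vehicle libraries with more low-quality reads. The increase was 1.89-fold (0.92, SE 0.0706, adjusted p = 2.62e-09), and the difference between the increases in AS and WT mice was -0.02 (95% interval -0.23 to 0.18, adjusted p = 0.918 in the interaction test). In AS mice 17.9% of genes were called with acute CORT, and 3 of the 9 members, with a median of 0.04 over the 9 and of 0.00643 over all genes. With the division by low-quality reads as a covariate, the increase of Slc2a1 in AS mice was 1.13 on the log2 scale. Endothelial cells of brain vessels are a main site of GLUT1, so their markers were read beside it. Of Cldn5, Pecam1, Cdh5, Flt1 and Ly6c1, Ly6c1 was higher with acute CORT in both genotypes (0.40 in WT and 0.30 in AS), Cldn5 was lower in AS mice (-0.51), and the other 3 passed the test in neither. The sum of these markers of brain endothelium was 102 to 156 CPM with vehicle and 123 to 165 CPM with CORT in the WT groups, against 126 to 155 CPM and 112 to 126 CPM in the AS groups. Of the astrocyte markers Aqp4, Aldh1l1, Gja1 and Gfap, Aldh1l1 was higher with acute CORT in both genotypes (0.23 in WT and 0.20 in AS) and the other 3 passed the test in neither. The sum of these astrocyte markers was 545 to 676 CPM with vehicle and 527 to 627 CPM with CORT in WT mice, against 523 to 589 CPM and 572 to 641 CPM in AS mice. The microglia markers Cx3cr1 (-0.32 in WT and -0.48 in AS) and P2ry12 (-0.40 and -0.25) were called lower, Csf1r and Tmem119 were not called, and the sum of the 4 was 197 to 246 CPM with vehicle and 193 to 215 CPM with CORT in WT mice, against 187 to 239 CPM and 169 to 211 CPM in AS mice. Of the markers of pericytes, Pdgfrb was lower in AS mice (-0.44) and no other call was made. The part of these markers in the Slc2a1 values was not tested, and in bulk tissue more RNA per cell and more cells of a type cannot be told apart.

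**Figure D2:**
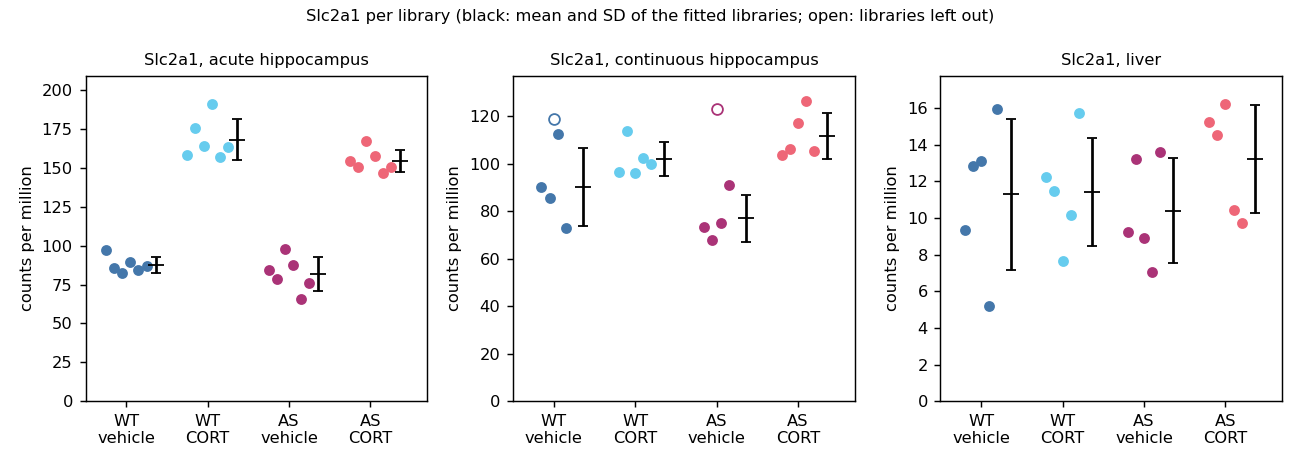
Slc2a1 in CPM (TMM-normalized) in the acute hippocampus, the continuous hippocampus and the liver, with 1 point per library and the mean with SD in black. Open circles are H13 (118.9) and H9 (123.2), left out of the fits. Acute CORT libraries lie above all acute vehicle libraries, and the 4 liver groups overlap between 5.23 and 16.2 CPM.

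The summed level of the 10 genes was 72.2 ± 2.08 CPM per kilobase with vehicle and 96.1 ± 2.85 with CORT in WT mice (SD, n = 6 each), and it was 70.9 ± 5.11 and 92.1 ± 1.21 in AS mice. The share of Slc2a1 in this sum was 34.6% ± 1.39 with vehicle and 49.8% ± 2.52 with CORT in WT mice, and 32.8% ± 2.39 and 47.8% ± 2.09 in AS mice. CORT and vehicle did not overlap in either genotype. Slc2a3, the transporter of neurons, had 89.1 to 117 CPM over the 24 libraries and CORT effects of 0.01 (95% interval -0.11 to 0.13) in WT and -0.04 (-0.17 to 0.08) in AS mice, while its share was 19.6% with vehicle and 14.9% with CORT in WT mice.

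After 5 days of CORT, Slc2a1 was higher in the hippocampus of AS mice but was not called in WT mice. In AS vehicle mice it had 68.1 (H14), 73.6 (H11), 75.3 (H19) and 91.1 CPM (H2), and in AS CORT mice 104 (H10), 105 (H8), 106 (H16), 117 (H18) and 126 CPM (H7). The groups did not overlap, and the increase was 1.45-fold (log2 fold change 0.54, SE 0.103, n = 4 and 5, adjusted p = 0.00442). In WT vehicle mice it had 73.2 (H6), 85.6 (H17), 90.3 (H1) and 112 CPM (H4), and in WT CORT mice 96.3 (H20), 96.7 (H12), 99.7 (H5), 103 (H3) and 114 CPM (H15). These groups overlapped through H4, and the difference did not pass the test (0.17, SE 0.102, adjusted p = 0.462). The effect in AS minus the effect in WT mice was 0.37 (95% interval 0.06 to 0.67), with an adjusted p of 1 in edgeR's test of the interaction, so a difference between the genotypes was not shown.

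The call in AS mice was lost when H9 and H13 were included, whose Slc2a1 values were 123 and 119 CPM. With all 20 libraries, CORT minus vehicle was 0.38 for AS (adjusted p = 0.258) and 0.09 for WT mice (adjusted p = 0.786). The share of Slc2a1 in the family sum was 28.6% ± 2.38 with vehicle and 37.0% ± 2.56 with CORT in AS mice, and 31.7% ± 3.01 and 33.3% ± 1.92 in WT mice. The summed markers of brain endothelium were 127 to 149 CPM with vehicle and 115 to 148 CPM with CORT in AS mice, with Cldn5 lower in AS (-0.50) and Cdh5 lower in WT mice (-0.51) and none of the 5 called higher. The astrocyte markers were lower with CORT without overlap, at 671 to 742 CPM with vehicle and 483 to 565 CPM with CORT in AS mice and at 749 to 843 CPM and 491 to 574 CPM in WT mice. Aqp4 (-0.85 in each genotype), Gfap (-0.55 in AS and -0.69 in WT) and Gja1 (-0.23 and -0.35) were called lower, and Aldh1l1 was not called. The markers of pericytes (Pdgfrb, Rgs5, Kcnj8 and Vtn) also did not overlap, at 152 to 173 CPM with vehicle and 113 to 139 CPM with CORT in AS mice and at 156 to 182 CPM and 118 to 135 CPM in WT mice, and all but Kcnj8 were called lower in both. The markers of microglia (Csf1r, Cx3cr1, Tmem119 and P2ry12) did not overlap either, at 201 to 225 CPM with vehicle and 176 to 198 CPM with CORT in AS mice and at 219 to 244 CPM and 182 to 204 CPM in WT mice, and Cx3cr1 and P2ry12 were called lower in both. The part of these cell types in the Slc2a1 values was not tested.

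The acute CORT effect on Slc2a1 was larger than the continuous one. Averaged over the genotypes and fitted over both experiments, the acute minus the continuous CORT effect was 0.56 (SE 0.0867, adjusted p = 4.92e-05 with edgeR), in a comparison that called 2.58% of 14419 genes. It was the only one of 9 members called. The experiments also differed in dose, form of delivery (injection or pellet), vehicle and mice, which cannot be told apart from the duration of exposure.

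Slc2a4 was the other member that rose in the continuous hippocampus of AS mice. It had 1.53 (H2), 1.56 (H14), 1.68 (H19) and 1.74 CPM (H11) with vehicle, which are 33 to 38 counts, and 1.998 (H10), 3.78 (H8), 3.90 (H18), 3.93 (H16) and 5.03 CPM (H7) with CORT, which are 43 to 107 counts. All CORT libraries lay above all vehicle libraries, H10 by the least. The increase was 2.28-fold (log2 fold change 1.19, SE 0.207, adjusted p = 0.0018). In WT mice the libraries also did not overlap, at 0.896 to 1.72 CPM with vehicle and 1.81 to 2.09 CPM with CORT, but the difference of 0.49 (SE 0.220) did not pass the test (adjusted p = 0.283). The interaction was 0.70 (95% interval 0.07 to 1.33, adjusted p = 1 in edgeR). Slc2a1 and Slc2a4 were the 2 of 9 members called in AS mice, where 3.77% of 14949 genes were called, and no member was called in WT mice with edgeR or with DESeq2, where edgeR called 2.92%. In WT mice 4 members had an unadjusted p under 0.05, namely Slc2a4, Slc2a5 (log2 fold change -0.34), Slc2a6 (0.19) and Slc2a12 (-0.90). Over all 14949 genes, 2339 had an unadjusted p under 0.05 in WT mice.

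Because GLUT4 belongs to muscle and fat, the markers of these tissues were read in the same libraries. The skeletal muscle markers Acta1, Myh4 and Ckm summed to 48.9 CPM in H18 but to 6.32 to 8.61 CPM in the other 4 AS CORT libraries, whose Slc2a4 reached from 1.998 to 5.03 CPM. In WT CORT mice H20 had 51.7 CPM of muscle markers and 2.09 CPM of Slc2a4. The adipose tissue markers Adipoq, Plin1, Cfd and Lep summed to at most 0.796 CPM in the fitted libraries. In the libraries left out, Slc2a4 reached 6.30 CPM in H9 and 6.37 CPM in H13, above all others, with muscle markers at 2.97 and 6.64 CPM. The part of muscle and fat in the Slc2a4 values was not tested. With these libraries included, the increase of Slc2a4 in AS mice was 0.54 and was not called (adjusted p = 0.689).

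**Figure D3:**
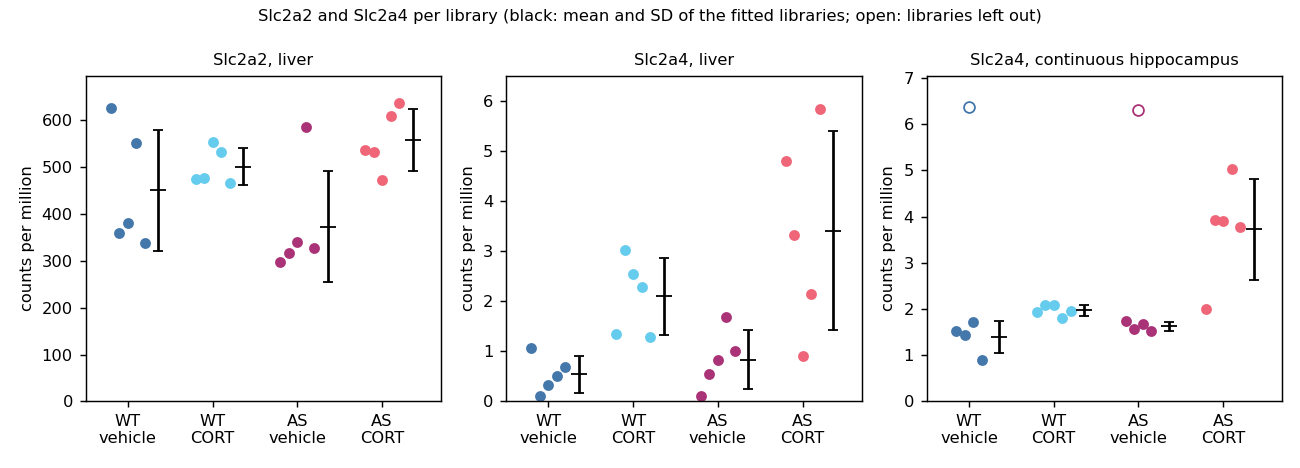
Slc2a2 in liver and Slc2a4 in liver and continuous hippocampus in CPM (TMM-normalized), with 1 point per library and the mean with SD in black. Open circles are the hippocampal libraries H13 (6.37) and H9 (6.30), left out of the fits. AS CORT libraries reach 5.84 CPM of Slc2a4 in liver and 5.03 CPM in hippocampus, and L1, L4 and L2 stand above the other vehicle libraries in Slc2a2.

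In the liver, Slc2a4 was called higher with continuous CORT in both genotypes, from a very low level. It passed the filter on low counts only through the CORT groups, where it is high, so these calls are given as a description. In WT mice it had 0.105 (L13), 0.337 (L17), 0.503 (L4), 0.688 (L6) and 1.059 CPM (L1) with vehicle, and 1.28 (L5), 1.35 (L12), 2.28 (L3), 2.55 (L20) and 3.02 CPM (L15) with CORT. In AS mice it had 0.0984 (L11), 0.540 (L14), 0.824 (L19), 1.004 (L9) and 1.68 CPM (L2) with vehicle, and 0.909 (L18), 2.15 (L7), 3.33 (L16), 4.81 (L10) and 5.84 CPM (L8) with CORT. The WT groups did not overlap, whereas in AS mice L18 lay below L9 and L2. The increase was 3.83-fold in WT liver (log2 fold change 1.94, SE 0.558, adjusted p = 0.0186). It was 4.09-fold in AS liver (2.03, SE 0.513, adjusted p = 0.00573). All of these values rest on 2 to 120 counts, L13 and L11 had 2 counts each, under the floor, and the WT call was lost without L15 (1.76, adjusted p = 0.0504). In all 20 liver libraries the skeletal muscle markers summed to at most 0.866 CPM and the adipose tissue markers to at most 0.245 CPM, with Lep at 0 in every library.

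Slc2a2, the main transporter of hepatocytes, was called higher with CORT in AS but not in WT mice, and the difference between the genotypes did not pass the test. It had 297 (L11), 316 (L14), 327 (L9), 341 (L19) and 585 CPM (L2) in AS vehicle mice and 472 (L18), 532 (L16), 536 (L10), 609 (L7) and 636 CPM (L8) in AS CORT mice. The groups overlapped through L2. The increase was 1.49-fold (log2 fold change 0.58, SE 0.180, n = 5 per group, adjusted p = 0.0218). In WT mice Slc2a2 had 337 (L6), 359 (L13), 382 (L17), 551 (L4) and 626 CPM (L1) with vehicle and 466 (L5), 474 (L12), 477 (L15), 533 (L3) and 553 CPM (L20) with CORT. The vehicle libraries L4 and L1 lay within or above the CORT range, and the difference of 0.15 (SE 0.180) did not pass the test (adjusted p = 0.631). The interaction was 0.43 (95% interval -0.10 to 0.96, adjusted p = 0.669). The call in AS mice was kept in 14 of 20 fits with a library left out and was lost without L7, L8, L9, L11, L14 or L19, at adjusted p of up to 0.0622.

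The vehicle libraries with high Slc2a2 were high in other members too. L1, L4 and L2 had 20.9, 16.2 and 16.6 CPM of Slc2a5, against 4.39 to 8.93 CPM in the other 7 vehicle libraries, and 69.0, 63.7 and 83.5 CPM of Slc2a9, against 47.4 to 53.0 CPM. Their summed pericentral liver markers (Glul, Cyp2e1, Oat and Cyp1a2) were also the highest of the vehicle libraries, at 10393, 13068 and 9328 CPM, against 5461 to 8269 CPM, whereas their markers of hepatocytes (90173, 100160 and 90281 CPM) lay within the range of the others. With CORT, Alb (0.32, adjusted p = 0.0243 with edgeR) and Cps1 (0.43, adjusted p = 0.000119) of the 4 markers of hepatocytes were called higher in AS liver and none in WT liver, as was the case for Slc2a2, and Apoa1 and Apob were called in neither. The sum of the 4 was 85775 to 116880 CPM with vehicle and 110400 to 132880 CPM with CORT in AS mice, which overlapped. Several markers of other liver cells were lower with CORT, but others were not. The cholangiocyte genes Krt19 (0.69 in WT and 0.41 in AS) and Sox9 (0.42 and -0.13) were called in neither genotype. Of the pericyte genes, Kcnj8 was called lower in both genotypes (-1.24 and -0.68) and Pdgfrb in AS (-0.70) but not in WT mice (-0.27). Rgs5 (0.16 and 0.19) and Vtn (0.02 and 0.14) were called in neither. All 3 markers of Kupffer cells were called lower in both genotypes (Clec4f -0.62 in WT and -1.05 in AS), as was the leukocyte gene Ptprc (-1.44 and -1.55). Of the endothelial genes, Cldn5 (-0.72 and -1.17) and Cdh5 (-0.58 and -1.06) were called lower in both genotypes. Pecam1 was called in AS (-0.57) but not in WT mice (-0.19), and Flt1 in neither (-0.01 in WT and -0.23 in AS). Of the genes of red blood cells, Hba-a1 (-0.97 in WT and -1.01 in AS) and Hbb-bs (-0.93 and -1.06) were called lower in both genotypes. Alas2 (-0.93) and Hbb-bt (-0.97) were called lower in AS but not in WT mice (-0.34 and -0.80), and Hba-a2 in neither. Over the 20 liver libraries of all 4 groups, Slc2a2 had a Pearson r of -0.61 (Spearman rho -0.48) with the summed markers of Kupffer cells and of -0.68 (rho -0.64) with those of endothelium, as a description. Its r was -0.51 (rho -0.53) with the markers of cholangiocytes. With those of hepatocytes it was only 0.23 (rho 0.10), and with the pericentral markers 0.14 (rho 0.11). The part of these markers in the Slc2a2 values was not tested.

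As a share of the family sum, Slc2a2 set the treatments apart in both genotypes. It made up 72.7% to 78.6% of the sum with vehicle and 78.8% to 82.0% with CORT in WT liver, and 70.4% to 76.6% and 78.6% to 82.0% in AS liver (n = 5 each). The treatments did not overlap within a genotype. The share of Slc2a9 was 10.99% ± 0.964 with vehicle and 8.38% ± 0.349 with CORT in WT mice, and 12.7% ± 0.998 and 8.07% ± 1.09 in AS mice. The CPM of Slc2a9 itself did not pass the test (log2 fold change -0.29, adjusted p = 0.193, in WT and -0.20, adjusted p = 0.327, in AS). These shares are a description, chosen after the values were seen, and a share rises when other members fall.

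Of the 6 members tested in the liver, 1 was called with CORT in WT mice, where 18.6% of 12273 genes were called, and 2 in AS mice, where 27.5% were called. These counts include Slc2a4, whose direction the filter favoured, in both genotypes. The median over the 6 was -0.07 in WT and 0.38 in AS mice, against -0.00473 and -0.00321 over all genes tested. Slc2a8 had log2 fold changes of -0.26 in WT and -0.13 in AS mice (adjusted p = 0.0812 and 0.359), and Slc2a1 had 0.02 and 0.35 (95% intervals -0.51 to 0.54 and -0.18 to 0.87). Slc2a5 had -0.17 and 0.42 (-1.01 to 0.68 and -0.44 to 1.27). Slc2a3, Slc2a6, Slc2a12 and Slc2a13 did not pass the filter in liver.

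**Figure D4:**
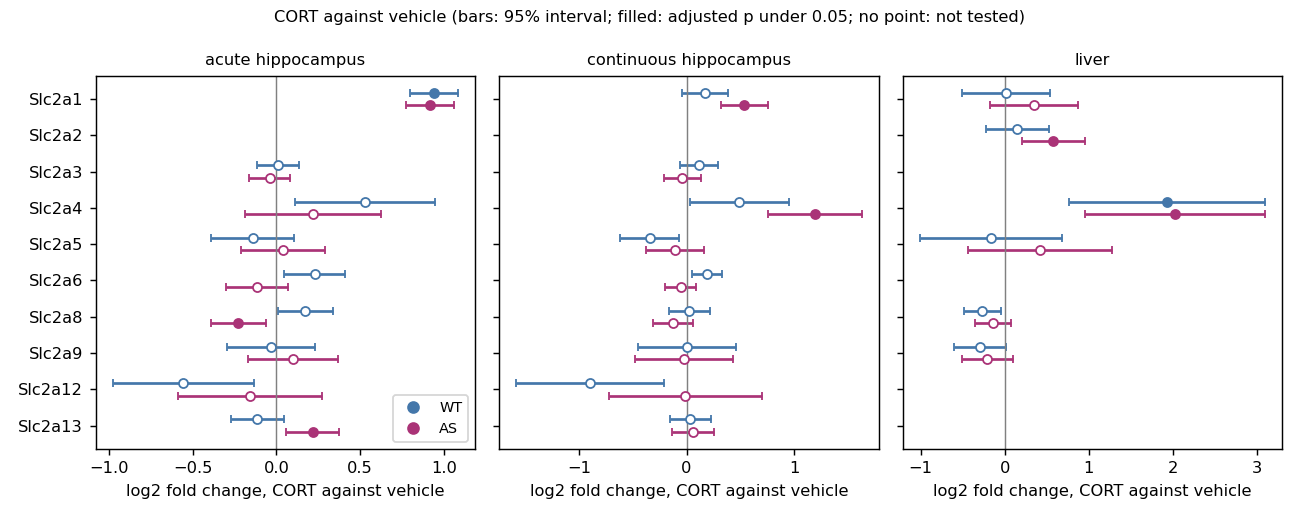
Log2 fold change of CORT against vehicle for each Slc2a gene (rows) in the acute hippocampus, continuous hippocampus and liver, in WT (blue) and AS mice (purple). Bars are 95% intervals, filled points passed an adjusted p of 0.05 and genes without a point were not tested. Slc2a1 is filled in both genotypes in the acute hippocampus (0.94 and 0.92), and Slc2a4 in both genotypes in liver (1.94 and 2.03).

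Slc2a1 in hippocampus and Slc2a2 in liver were set beside each other over the 18 numbers of the continuous experiment that occur in both tissues among the fitted libraries (number 1 joins H1 and L1), each taken as 1 mouse, although the labels do not tie the numbers to mice. Averaged over the genotypes, the log2 CORT effect on Slc2a2 in liver minus that on Slc2a1 in hippocampus was -0.01 (exact two-sided permutation test within genotypes, p = 0.916, 15876 permutations, of which the smallest possible p is 0.000126). It was -0.07 in WT mice (n = 4 vehicle and 5 CORT, exact permutation p = 0.690) and 0.04 in AS mice (n = 4 and 5, exact permutation p = 0.786), where the smallest possible p is 0.0159. In both organs the larger fold change was that of the AS mice, 0.54 against 0.17 for Slc2a1 and 0.58 against 0.15 for Slc2a2, but neither interaction was called. The WT values moved with single libraries, from 0.08 to 0.30 for Slc2a1 and from 0.06 to 0.30 for Slc2a2 with a library left out, and passed the test in none of these fits.

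The liver minus hippocampus CORT effect was then tested for each member, with 19.6% of 16205 genes called. Slc2a4 had the larger increase in liver, by 1.17 (SE 0.421, adjusted p = 0.0459). Slc2a13 was also called (-1.10, SE 0.336, adjusted p = 0.0176), but it had 1 to 15 counts in liver and passed the filter only through hippocampus, so its value is given as a description. Both calls were lost when the number that hippocampal and liver libraries share was fitted as a block (Slc2a4 1.08, adjusted p = 0.141, and Slc2a13 -1.01, adjusted p = 0.117, with edgeR). The Slc2a4 call was kept in 10 of 38 fits with a library left out, and its difference was 1.87 with H9 and H13 included. The Slc2a13 call was lost without L6 (-0.94, adjusted p = 0.0568). The summed markers of neurons Snap25, Rbfox3 and Syt1 also had lower values with CORT, at 12.3 to 28.1 CPM with vehicle and 4.35 to 8.91 CPM with CORT in WT liver and at 11.4 to 25.7 and 7.46 to 10.9 CPM in AS liver, nearly all of it Syt1 (mean 12.2 CPM, against 0.288 CPM of Snap25). Their part in the Slc2a13 counts was not tested.

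Genotype was compared within each treatment. In the acute hippocampus with vehicle, no member was called with edgeR or with DESeq2, in a comparison that called 0.157% of genes. Slc2a8 had an unadjusted p under 0.05 (log2 difference 0.17, adjusted p = 0.496), as did 1394 of all 14611 genes. With acute CORT, 24.9% of genes were called and 3 of 9 members. These were Slc2a6, whose product sits in lysosomes, Slc2a8, whose product sits in intracellular membranes, and the myo-inositol carrier gene Slc2a13.

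Slc2a6 had 29.7 to 38.7 CPM in WT CORT mice (median 34.2) and 23.9 to 26.6 CPM in AS CORT mice (median 26.2), without overlap, and was lower in AS mice by 0.40 (SE 0.0900, adjusted p = 0.00249). Slc2a13 had 103 to 132 CPM in WT CORT mice (median 119) and 140 to 174 CPM in AS CORT mice (median 145), also without overlap, and was higher in AS mice by 0.33 (SE 0.0767, adjusted p = 0.00337). Slc2a8 had 17.5 to 23.5 CPM in WT CORT mice (median 20.1) and 16.1 to 18.9 CPM in AS CORT mice (median 17.5), with overlap, and was lower in AS mice by 0.23 (SE 0.0802, adjusted p = 0.0391).

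Markers of oligodendrocytes, the myelin-forming cells, varied widely between the 24 acute libraries, from 883 to 3209 CPM for Mbp and from 62.7 to 219 CPM for Mag. Within AS mice Mbp (-0.67, adjusted p = 0.0415 with edgeR) and Mag (-0.72, adjusted p = 0.0263) were called lower with CORT, opposite in direction to Slc2a13, and Mog was not called (-0.55, adjusted p = 0.0991). In WT mice none of these 3 was called with CORT. The part of oligodendrocytes in the Slc2a13 values was not tested.

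In each of these genes the AS CORT mice also all belonged to the libraries with more low-quality reads. The AS vehicle libraries on the same side, H17 and H18, had 24.4 and 24.4 CPM of Slc2a6, 18.7 and 19.2 CPM of Slc2a8, and 140 and 119 CPM of Slc2a13. With the division as a covariate, the differences were -0.13 for Slc2a6, -0.06 for Slc2a8 and 0.33 for Slc2a13, at adjusted p of 0.892 to 0.981. The interaction called 4.49% of genes and 1 member, Slc2a8 (-0.40, SE 0.113, adjusted p = 0.0441), for which the CORT effect was 0.17 in WT and -0.23 in AS mice. This call was kept in 9 of 24 fits with a library left out and was lost with the division as a covariate (-0.29, adjusted p = 0.891). Slc2a13 missed the threshold in the interaction (0.33, adjusted p = 0.0709), as did Slc2a6 (-0.34, adjusted p = 0.105).

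**Figure D5:**
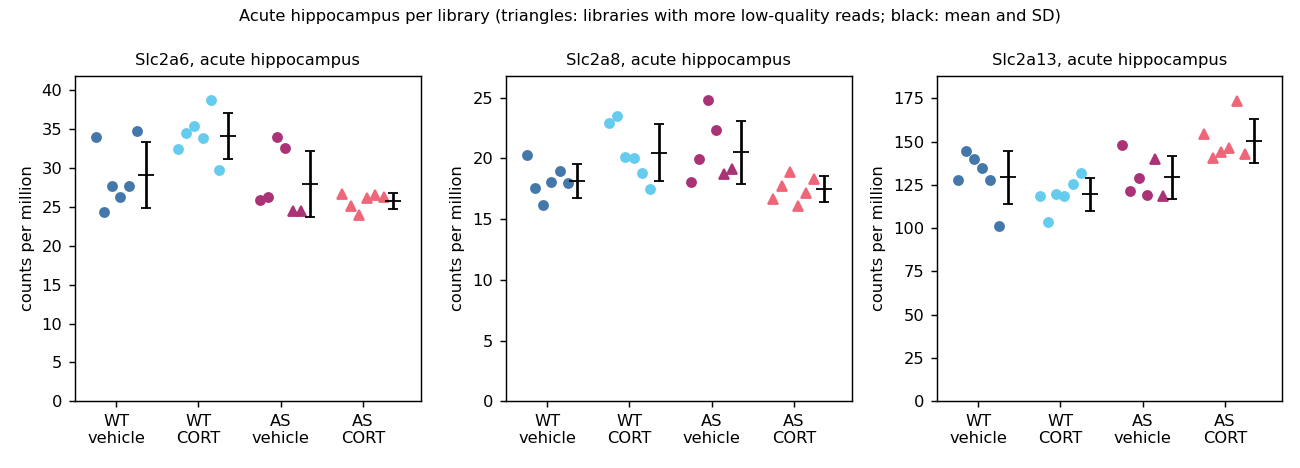
Slc2a6, Slc2a8 and Slc2a13 in CPM (TMM-normalized) in the 4 groups of the acute hippocampus, with 1 point per library and the mean with SD in black. Triangles are the 8 libraries with 2640 to 2850 low-quality reads. All 6 AS CORT libraries are triangles and lie below the WT CORT libraries in Slc2a6 and above them in Slc2a13.

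Within AS mice, Slc2a8 was lower with acute CORT by 0.23 (SE 0.0803, adjusted p = 0.0483) and Slc2a13 was higher by 0.22 (SE 0.0766, adjusted p = 0.0494). Slc2a8 had 18.0 to 24.8 CPM with vehicle and 16.1 to 18.9 CPM with CORT, and Slc2a13 had 119 to 148 CPM with vehicle and 140 to 174 CPM with CORT, so both genes overlapped between the groups. The call of Slc2a8 was kept in 11 of 24 and that of Slc2a13 in 6 of 24 fits with a library left out, and neither was kept with the division as a covariate. The fold change of Slc2a8 was then -0.12 (adjusted p = 0.904), whereas that of Slc2a13 was still 0.22 (adjusted p = 0.640).

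In the continuous hippocampus, edgeR called no member between genotypes, either with vehicle, where 0.0134% of genes were called, or with CORT, where 0.0401% were called. DESeq2 called none with vehicle and Slc2a4 and Slc2a6 with CORT. Unadjusted p was under 0.05 for Slc2a1 (-0.23) and Slc2a12 (-0.78) with vehicle (1098 of all 14949 genes), and for Slc2a4, Slc2a5 and Slc2a6 with CORT (1523 of all 14949 genes). Of these, Slc2a4 was 0.91 higher (SE 0.189, adjusted p = 0.106) and Slc2a6 was 0.26 lower in AS mice (SE 0.0632, adjusted p = 0.197), the latter in the same direction as in the acute experiment, whose mice were others. The interaction called 0% of genes in edgeR, with 561 of 14949 at an unadjusted p under 0.05, 3 of them members (Slc2a1, Slc2a4 and Slc2a6). In the liver, genotype called 0.0163% of genes with vehicle and 0.277% with CORT, the interaction called 0% (995 of 12273 unadjusted), and no member had an unadjusted p under 0.05 in any of these liver comparisons or was called there by DESeq2.

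Slc2a5, Slc2a9 and Slc2a12 were called in no comparison within the hippocampus. Slc2a9 stayed between 2.38 and 4.13 CPM in all 24 acute libraries, with CORT effects of -0.03 in WT and 0.10 in AS mice, and between 1.91 and 5.12 CPM in the fitted continuous libraries. Slc2a5, which microglia express in brain, had 2.50 to 4.20 CPM in the acute libraries and effects of -0.14 and 0.04. Slc2a12 had a log2 fold change of -0.56 with acute CORT in WT mice (adjusted p = 0.273). Its highest value, 6.45 CPM in the WT vehicle library H6, was again in the acute library with the highest choroid plexus markers (1061 CPM, against at most 91.9 in the others), and their part in it was not tested.

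Other genes of glucose handling were read from a list of 27 that covers further sugar and monocarboxylate carriers, hexokinases, glucose release and the machinery of GLUT4 traffic. In the acute hippocampus of WT mice 1 of 22 tested genes was called, where 1.48% of all genes were, namely Slc16a1, which encodes the lactate carrier MCT1, which was lower (log2 fold change -0.44, SE 0.0812, adjusted p = 0.00245). In AS mice 5 of 22 were lower and none higher, where 17.9% of all genes were called. The largest changes were those of Slc2a10 (-0.68), a further member of the GLUT family, Slc16a1 (-0.58), G6pc3 (-0.41), which encodes a glucose-6-phosphatase found in most tissues, and Aspscr1 (-0.27), which encodes a tether of GLUT4 vesicles. All 6 AS CORT libraries but 2 of the 6 AS vehicle libraries had more low-quality reads, and Mbp and Mag were lower in the same comparison. The part of both in these calls was not tested. The median over the 22 was 0.05 in WT and -0.11 in AS mice, against -0.00226 and 0.00643 over all genes tested.

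In the continuous hippocampus 1 of 22 was called in WT mice and 3 of 22 in AS mice, where 2.92% and 3.77% of all genes were called. Slc16a1 was again lower in WT (-0.55, adjusted p = 0.00255) and in AS hippocampus (-0.67, adjusted p = 0.000205). In AS mice this was opposite in direction to Slc2a1, whose call was lost with all 20 libraries. In WT mice Slc2a1 was not called. In AS mice Slc2a10 was also lower (-0.88, adjusted p = 0.00178) and Txnip, whose product holds back glucose uptake, was higher (0.74, adjusted p = 0.00916). Between genotypes with acute CORT, 3 of the 22 were lower and 1 was higher, where 24.9% of all genes were called. Slc45a1 (-0.34), G6pc3 (-0.43) and Aspscr1 (-0.30) were lower in AS mice, and these were also the genes of the list called in the acute interaction (-0.45, -0.52 and -0.40), where 4.49% of all genes were called. These genotype differences cannot be told apart from the division by low-quality reads. With edgeR, none of the 22 was called between genotypes with acute vehicle (2 at an unadjusted p under 0.05), between genotypes in the continuous hippocampus with vehicle or with CORT (3 each), in the continuous interaction (3) or between the acute and the continuous effect (3). Over all genes, these unadjusted counts were 1394 of 14611 with acute vehicle, and 1098 and 1523 of 14949 between genotypes in the continuous hippocampus. They were 561 of 14949 in the continuous interaction and 2218 of 14419 between the effects.

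In the liver of WT mice 3 of 21 tested genes of the list were higher and 3 lower with CORT, where 18.6% of all genes were called, and in AS mice 4 were higher and 4 lower, where 27.5% were called. The hexokinase gene Hk3 was lower (-1.34 in WT and -1.58 in AS mice), as was Hk1 (-0.55 and -0.73). Hk2 was lower in AS mice (-1.48). Khk, the first enzyme of fructose use, was higher by 0.91 and 1.05, and Slc37a4, which moves glucose-6-phosphate into the endoplasmic reticulum for glucose release, by 0.79 and 1.31. The largest change was that of Sort1, which encodes the sorting receptor sortilin, at -2.30 (SE 0.165) in WT and -2.64 (SE 0.168) in AS mice. The markers of Kupffer cells (Clec4f, Vsig4 and Adgre1) summed to 62.3 to 81.0 CPM with vehicle and 35.6 to 56.9 CPM with CORT in WT liver, and to 85.0 to 120 CPM and 38.8 to 55.4 CPM in AS liver, and their part in the fall of Hk3, a hexokinase of leukocytes, was not tested. No gene of the list was called between genotypes in the liver with edgeR, with 3 at an unadjusted p under 0.05 with vehicle and 1 with CORT. Of all 12273 genes, 1270 and 1018 had an unadjusted p under 0.05 there. Between tissues, 12 of 25 were higher and 13 lower in liver, where 89.5% of all genes were called. The liver minus hippocampus CORT effect was called above 0 for 8 and below 0 for 5 of 25, where 19.6% of all genes were called.

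The genes whose log2 CPM followed Slc2a1 most closely over the 24 acute hippocampal libraries were Frmpd1 (Pearson r = 0.975), Fzd2 (0.967), Mfsd2a (0.964), Cmtm3 (0.964) and Hacd2 (0.960), as a description among 14610 genes over libraries of both treatments. Over the 18 continuous libraries Frmpd1 did not follow Slc2a1 (-0.28), and the other 4 had r of 0.805 to 0.868. Mfsd2a encodes a lipid transporter of the endothelium of the blood-brain barrier. Over the 20 liver libraries, the genes that followed Slc2a2 closely included Slc20a1 (0.967), Dgat2 (0.964), Uox (0.954) and Marveld1 (0.953) among 12272 genes.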

How the data were processed

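RNA of 64 samples (24 acute hippocampi, 20 continuous hippocampi and 20 livers) was sequenced from stranded mRNA libraries. The authors checked reads with FastQC and MultiQC, aligned them to mm10 with STAR and deposited raw counts per gene from HTSeq-count. Versions of these tools are not given in the sources used here.

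Counts were tested with edgeR 4.0.16 (R 4.3.3; TMM, quasi-likelihood F test, 1 coefficient per group, Benjamini-Hochberg adjustment over all tested genes, threshold 0.05). A gene was kept where 3 or more replicates of some group each exceeded 20 median-of-ratios counts. H9 and H13 were left out, as by the authors, and 18 continuous hippocampal libraries were fitted. DESeq2 1.42.0 was an alternative. Log2 CPM used a prior count of 2. P-values of the fits judge a difference against the spread between libraries of a group. The scripts were tested on simulated data. Every member was named, with up to 4 called genes of largest change from the glucose list per comparison, but counts only between tissues. Liver values of Hk1, Slc37a4 and, in AS mice, Khk fell outside this rule and were chosen after they were seen. The members and lists were chosen with earlier results of these data known. Replicates differed by more than counting noise in every pair. Some genes of the lists are not reported here.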

Additional observations from a re-analysis of the deposited data

Results flagged for a closer look

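In 96 groups of libraries examined, 9 held a library far from the rest of its group, where chance flags about 1 in 20 groups. In the acute hippocampus these were H11 with 2.17 CPM of Slc2a4 in WT CORT (next 1.47), H14 with 1.90 CPM of Slc2a4 in AS vehicle (next 1.32) and H6 with 6.45 CPM of Slc2a12 in WT vehicle (next 3.58). In the continuous hippocampus they were H3 with the lowest Slc2a6 in WT CORT, 35.8 CPM (next 41.1), and H14 with 129 CPM of Slc2a13 in AS vehicle (next 104). In the liver, L2 of the AS vehicle mice stood out in Slc2a2 (585 CPM, next 341), Slc2a5 (16.6 CPM, next 6.01) and Slc2a9 (83.5 CPM, next 52.9), and L16 of the AS CORT mice had the lowest Slc2a8 (14.9 CPM, next 18.7).

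Effects that differed between groups by a test of the difference were the CORT effect on Slc2a8 between genotypes in the acute hippocampus (-0.40), the acute minus the continuous effect on Slc2a1 (0.56), and the liver minus hippocampus effect on Slc2a4 (1.17) and on Slc2a13 (-1.10). Slc2a13 passed the filter only through hippocampus, and neither of the last pair was called with the number shared by hippocampus and liver as a block (1.08 and -1.01, adjusted p = 0.141 and 0.117 with edgeR).

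The libraries left out of the fits lay above all 8 fitted vehicle libraries of the continuous hippocampus in Slc2a1 (123 CPM in H9 and 119 in H13, against at most 112), in Slc2a4 (6.30 in H9 and 6.37 in H13, against at most 1.74) and, for H13, in Slc2a12 (63.8 CPM, against at most 12.1).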

How the results depend on the processing

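Of 100 counts and differences recomputed under another setting, 85 stayed close to the reported value, as did 374 of 446 with a library left out. A count of 3 in place of 2 with CORT in AS liver (without a filter on low counts, adding Slc2a13 lower) and of 10 in place of 9 between tissues was still taken as close. Single members kept their direction in 151 of 152 cases under a setting (132 also their side of the threshold) and in 819 of 822 with a library left out (730). Without a filter on low counts, the members called with acute CORT in AS mice numbered 1 in place of 3 and those in the acute interaction 0 in place of 1. With the division by low-quality reads as a covariate, the counts were 1 for acute CORT in AS mice, 0 for genotype with acute CORT (3 in the report) and 0 for the interaction. DESeq2 called 2 in the interaction (Slc2a8 lower, Slc2a13 higher), 2 for genotype with continuous CORT (Slc2a4 higher, Slc2a6 lower) and 4 for the liver minus hippocampus effect. The shares of all genes that DESeq2 called are not given here, so its member counts cannot be set against them. With all 20 libraries, 0 members were called with continuous CORT in AS hippocampus. Upper-quartile normalization called 2 with CORT in WT liver, adding Slc2a8, and 1 for the liver minus hippocampus effect, as did median-of-ratios factors (1). The cause of these changes was not tested.

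With a library left out, the counts ranged from 1 to 3 for acute CORT in AS mice, from 2 to 3 for genotype with acute CORT, from 0 to 3 in the acute interaction (3 without H17), from 0 to 1 for continuous CORT in WT hippocampus (without H1, Slc2a12 lower) and for genotype with continuous CORT (without H10, Slc2a4 higher), from 0 to 2 for CORT in WT liver (0 without L15, 2 without L5), from 1 to 2 in AS liver and from 1 to 4 for the liver minus hippocampus effect.

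The numbers after H and L joined libraries of the same group in 20 of 20 cases, but the deviations of the 18 pairs correlated at -0.081 to 0.076, 0 of them over 0.1, and 0 libraries correlated best with their own number. With the number as a replicate block, 0 members were called for the liver minus hippocampus effect (Slc2a4 1.08, adjusted p = 0.141; Slc2a13 -1.01, adjusted p = 0.117) and 9 between tissues. The difference between Slc2a2 and Slc2a1 in the CORT effect (liver minus hippocampus), -0.01, was 0.15 (exact permutation p = 0.339) with all 20 numbers and 0.00968 without the block, and in WT mice it was 0.085 with all 20 numbers. With a number left out it ranged from -0.055 to 0.060, in WT mice from -0.134 to 0.078 and in AS mice from -0.045 to 0.179. Genes under about 20 counts in a library, such as Slc2a3, Slc2a6, Slc2a12 and Slc2a13 in liver and Slc2a2 in hippocampus, are limited by depth.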
